A study of Mus musculus with 2 samples.

Results

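The integrin subunit genes described here are 10 named genes, Itgb7, Itgb1, Itgb2 and Itgb3 for beta subunits and Itga4, Itgae, Itga6, Itgal, Itga1 and Itga2 for alpha subunits, out of 27594 gene names on the array. Their members were found by name: every row of the array files that is not a control and whose gene name, or current symbol reached through its accession, is on the list. They have 25 probes in 34 spots, and 8 of the 10 genes passed the filter on dim signals. The RNA came from double-positive (DP) thymocytes, the CD4+ CD8+ stage of T cell development. On each of 2 arrays the Bcl11bF/FCD4Cre/Tcra-/- sample carried Cy5 and the TCRa-/- sample carried Cy3, so each group has 2 samples. All of these mice lack Tcra and form no alpha beta T cell receptor, so their DP cells have not passed selection. The deficient genotype joins a CD4Cre transgene to floxed copies of Bcl11b, the gene of a transcription factor that T cells depend on, and Cre driven this way also acts in later T cells. Neither element is in the label of the controls and no array has the dyes reversed, so effects of Cre, of dye and of Bcl11b loss cannot be told apart. Age, sex and the number of mice per sample are not in the labels, which call the arrays biological replicates.

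Integrins are cell surface receptors made of an alpha and a beta chain that join in the cell, and a chain without a partner does not reach the surface. The beta 7 chain pairs with alpha 4 to form the receptor for MAdCAM-1 on gut vessels, and with alpha E (CD103) to form the receptor for E-cadherin on epithelium. The beta 2 chain pairs with alpha L to form LFA-1, the main ICAM receptor of lymphocytes, and the beta 1 chain pairs with alpha 1, 2, 4, 6 and others to bind collagen, fibronectin, VCAM-1 or laminin. In the thymus these receptors serve progenitor entry, movement over stroma and contact with epithelium.

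Processed signals are the scanner's values after correction for background and dye, and a log2 ratio is the log2 of deficient over control after normexp correction and loess within an array. Probes well above background made up 50.5% to 56.5% of spots in the deficient channel and 50.6% to 51.7% in the control channel, and 14920 genes were tested. Their ratios on the 2 arrays had a Pearson correlation of 0.674 across genes, which are not independent replicates. Bcl11b was lower in the deficient channel by both of its probes, at 6095 and 3573 against 15395 and 15984 in controls for one, and 5868 and 6924 against 14964 and 8190 for the other. Whether these probes lie in the deleted part is not known here. All 12 DP markers were measured, with a median log2 ratio of -0.24, 3 above 0 and 9 below 0 on both arrays. Cd4 read 441 and 384 in deficient cells and 525 and 652 in control cells. Cd8a read 39955 and 34213 in deficient cells and 52473 and 41880 in control cells, but its log2 ratios after loess were 0.003 and 0.016 (limma adjusted p = 0.938), and those of Cd8b1 were 0.49 and 0.47. Dntt, the gene of terminal transferase, gave 1.71 and 1.45 (mean 1.58 ± 0.10, limma adjusted p = 0.0663). These are the 3 markers above 0. Of the 9 below 0, Arpp21 gave -0.65 and -0.71, Rag2 -0.43 and -0.71, and Cd4 -0.16 and -0.54. In bulk RNA, fewer cells of a type and less RNA per cell cannot be told apart.

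Among the integrin genes, Itgb7 gave the highest ratio and Itga4, which encodes its alpha 4 partner, the next. Itga6, Itgb2, Itgae, Itgb1 and Itgal lay below 0 on both arrays, and Itgb3 lay near 0. Of the 8 measured genes, 3 were above 0 on both arrays and 5 below, where 36.4% of all genes tested were above and 38.5% below. The median log2 ratio of the 8 was -0.31, and that of all genes was 0.00. Itgb7 alone was at least 2-fold higher on both arrays, as were 0.818% of all genes, and none of the 8 was 2-fold lower, as 0.275% of all genes were. In limma's test over all 14920 genes with Benjamini-Hochberg adjustment, 0 of the 8 and 0% of all genes passed the threshold of 0.05. At an unadjusted limma p under 0.05 there were 6 of the 8, and 29.2% of all genes. Limma after median centring called 2 of the 8, both higher, as were 5.87% of all genes with 0.704% lower. Separate-channel limma, which treats each dye as a sample, called 2 higher and 2 lower, where 4.75% of all genes were higher and 3.83% lower. Limma on processed signals called 0 of the 8, with 0.496% of all genes higher and 0.382% lower, and limma on the deposited value table also called 0.

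**Figure D1:**
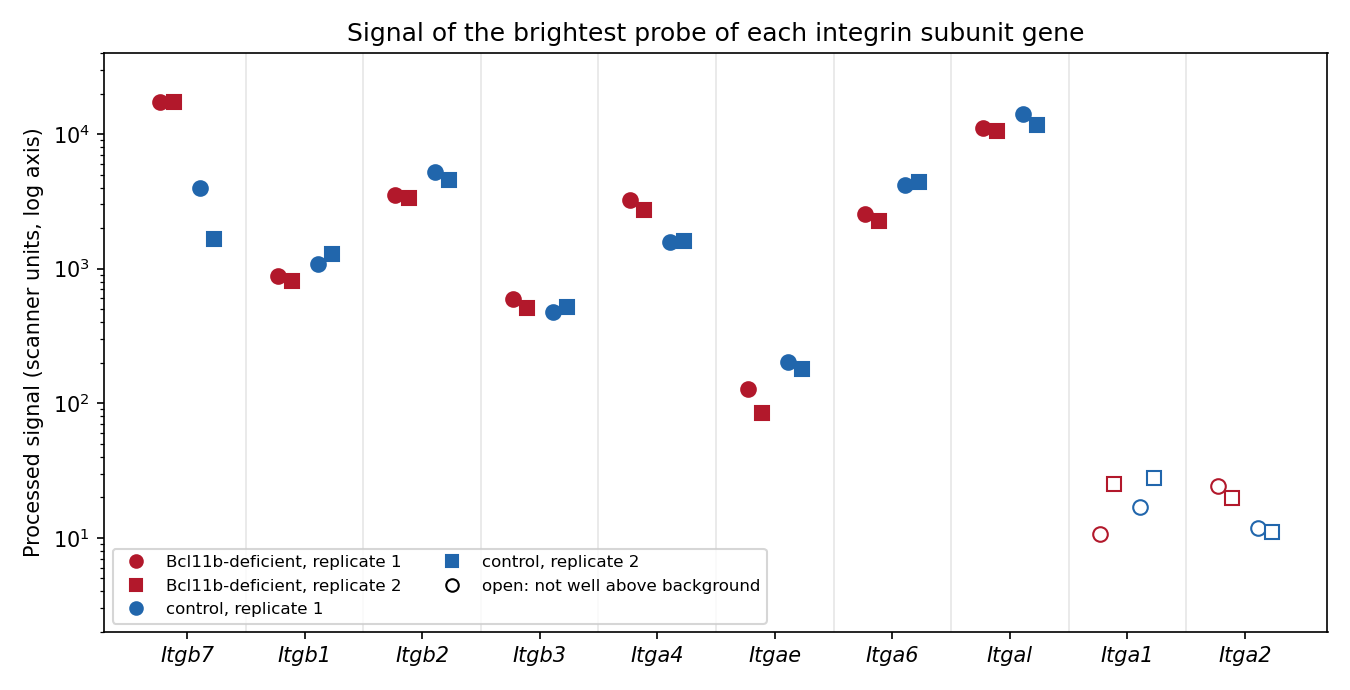
Processed signal (scanner units, log axis) of the brightest probe of each integrin subunit gene, with Bcl11b-deficient samples in red and control samples in blue, and open symbols where the signal was not well above background. Itgb7 stands at 17336 and 17177 in deficient cells and 4001 and 1659 in control cells, and Itga1 and Itga2 are open in every sample.

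Itgb7 was measured by 1 probe, at 102044053 to 102044112 on chromosome 15 (mm8 build). Its processed signals were 17336 and 17177 in deficient cells of replicates 1 and 2, and 4001 and 1659 in control cells. Both deficient signals were above both control signals, and the deficient samples were alike while the control samples were not. The log2 ratios were 2.08 and 3.24, with a mean of 2.66 ± 0.32 (limma SE, n = 2 arrays; adjusted p = 0.0773), which is a fold of 6.31. Itgb7 ranked 5 from the highest of the 14920 genes by this mean. The ratios of the 2 arrays differed by 1.16, and 0.697% of all genes differed by more. The adjusted p was 0.0357 with median centring and 0.0299 with separate-channel limma, both under the threshold.

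The summed signals of several marker lists also differed between the control samples. For 10 of 11 macrophage and monocyte markers the sums in replicates 1 and 2 were 34646 and 33505 in deficient cells and 30559 and 12345 in control cells. Without Lyz2, the brightest of them, they were 9592 and 5471 in deficient cells and 7352 and 3589 in control cells, so the near-equal deficient sums rest on Lyz2. For 4 of 7 erythroid markers the sums were 24636 and 43639 in deficient cells and 39982 and 10151 in control cells, nearly all from Hba-a1. For 9 of 11 stromal and endothelial markers they were 7040 and 3949 in deficient cells and 4069 and 1185 in control cells.

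Dendritic, thymic epithelial and B cell sums were lower in replicate 2 of both genotypes. The sums of 4 of 9 dendritic cell markers were 11435 and 4141 in deficient cells and 14689 and 3360 in control cells. Without Cd74, the brightest of them, the deficient sum of replicate 1 was above the control sum, at 5490 against 4876. The sums of 7 of 8 thymic epithelial markers were 6569 and 2843 in deficient cells and 9137 and 2161 in control cells. Without Krt8, the brightest of them, they kept their order in both replicates. For 5 of 7 B cell markers the sums were 4738 and 3438 in deficient cells and 7178 and 4030 in control cells. Without Cd79b, the brightest B cell marker, the deficient sum of replicate 2 was above the control sum, at 949 against 863. The sums of 9 of 13 NK and innate lymphocyte markers were 11568 and 11065 in deficient cells and 5797 and 5093 in control cells. Without Gzma, the brightest of them, they were 5860 and 5565 in deficient cells and 2757 and 1927 in control cells. The near-equal control sums thus rest on Gzma. Mertk, Klf1, Cdh5, Tek, Foxn1 and, of the NK list, Ncr1, Klrb1b, Klrc1 and Gzmb were among the markers that did not pass the filter.

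Among single markers, the NK receptor genes Klrb1c and Klrd1 gave log2 ratios of 2.42 and 3.32, and of 1.23 and 1.33. Of the 9 NK markers measured, 7 were above 0 on both arrays and 1 below, Prf1 at -0.09 and -0.34. Klrk1, among those above 0, passed the filter through the deficient channel alone, which favours a positive ratio. Pdgfrb, a receptor gene of stromal cells, gave 1.19 and 2.74. Of the 9 stromal and endothelial markers measured, 7 were above 0 on both arrays and 1 below, Pdgfra at -0.10 and -0.12. Col1a1 and Col1a2, among those above 0, also passed through the deficient channel alone. Of the macrophage list, Lyz2 gave 0.31 and 1.75, Adgre1 0.73 and 1.12, Itgam -0.18 and -0.23 and Cd14 -0.24 and -0.04. The part of such cells in the Itgb7 signal was not tested.

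Itgb2 encodes the beta chain of LFA-1 and of the myeloid integrins. Its only probe (77008949 to 77009008 on chromosome 10) had processed signals of 3496 and 3357 in deficient cells and 5195 and 4585 in control cells. Both deficient signals were below both control signals, and the arrays agreed closely, at -0.57 and -0.47 (mean -0.52 ± 0.07, limma adjusted p = 0.0847). This is 69.7% of the control level, and separate-channel limma put it past the threshold at an adjusted p of 0.0299. With median centring the mean was -0.23 (limma adjusted p = 0.228), so the size depended on the scaling.

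Itgb1 encodes the beta chain of the collagen, laminin and fibronectin receptors. Its brightest probe (131618682 to 131618741 on chromosome 8) averaged 885 and 816 in deficient cells and 1091 and 1283 in control cells over 10 spots per array. The groups did not overlap, and the ratios were -0.24 and -0.52 (mean -0.38 ± 0.10, limma adjusted p = 0.129). The 10 spots of this probe had an SD of 0.024 on array 1 and 0.023 on array 2, which measures spotting and hybridisation within an array and not the spread between samples. With median centring the mean was -0.20 (limma adjusted p = 0.233). A dimmer Itgb1 probe gave a mean of -0.17, and the remaining one was not above background in any sample.

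Itgb3 encodes the beta 3 chain, which pairs with alpha V or, in platelets, with alpha IIb. Its brighter probe (104483266 to 104483336 on chromosome 11) had processed signals of 591 and 513 in deficient cells and 479 and 516 in control cells, and the groups overlapped. The log2 ratios were 0.25 and 0.03 (mean 0.14 ± 0.09, limma adjusted p = 0.376). The dimmer probe gave 0.40 and 0.54 (mean 0.47), with signals of 431 and 339 in deficient cells and 301 and 193 in control cells that did not overlap. Of 10 platelet and megakaryocyte markers 5 were measured, with summed signals of 907 and 1266 in deficient cells and 868 and 856 in control cells. Their median log2 ratio was -0.20, with 2 above 0 and 3 below 0 on both arrays. Pf4, a platelet chemokine gene, gave 1.43 ± 0.24 (limma adjusted p = 0.0897), and the platelet surface genes Gp5, Treml1 and Gp1bb gave 0.09 ± 0.07, -0.29 ± 0.07 and -0.60 ± 0.07. Without Pf4 the sums were 476 and 463 in deficient cells and 722 and 747 in control cells, the other direction. The platelet genes Gp9, Gp1ba, Gp6 and Ppbp were among those that did not pass the filter. Their part in the Itgb3 signal was not tested.

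Itga4 encodes the alpha 4 chain, and 5 of its 6 probes passed the filter. The brightest (79131372 to 79131431 on chromosome 2) had processed signals of 3222 and 2724 in deficient cells and 1576 and 1614 in control cells. Both deficient signals were above both control signals. The log2 ratios were 0.97 and 0.69 (mean 0.83 ± 0.10, limma adjusted p = 0.0779), a fold of 1.78, and 2.14% of all genes had a higher mean. The adjusted p was 0.0321 with median centring and 0.0245 with separate-channel limma.

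The Itga4 probes span 57.3 kb of the gene. Of the 5 that passed, the 4 above background in both groups were above 0 on both arrays, with means from 0.54 to 0.83. The probe at the lowest position (79074077 to 79074136) passed through the deficient channel alone, which favours a positive ratio. It read 142 and 170 in deficient cells and 14.8 and 13.6 in control cells, where both arrays had it too dim to stand above background. For such probes the dimmer group has only a bound, set per array at the higher of its own signal and the lowest signal well above background, and this probe was at least 1.43-fold higher. A probe 19.6 kb further on was not above background in any sample. The other 4 lie 50.9 to 57.3 kb from the first, and the dimmest of them gave 0.45 and 0.64 with signals of 221 and 221 in deficient cells and 135 and 99.6 in control cells.

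**Figure D2:**
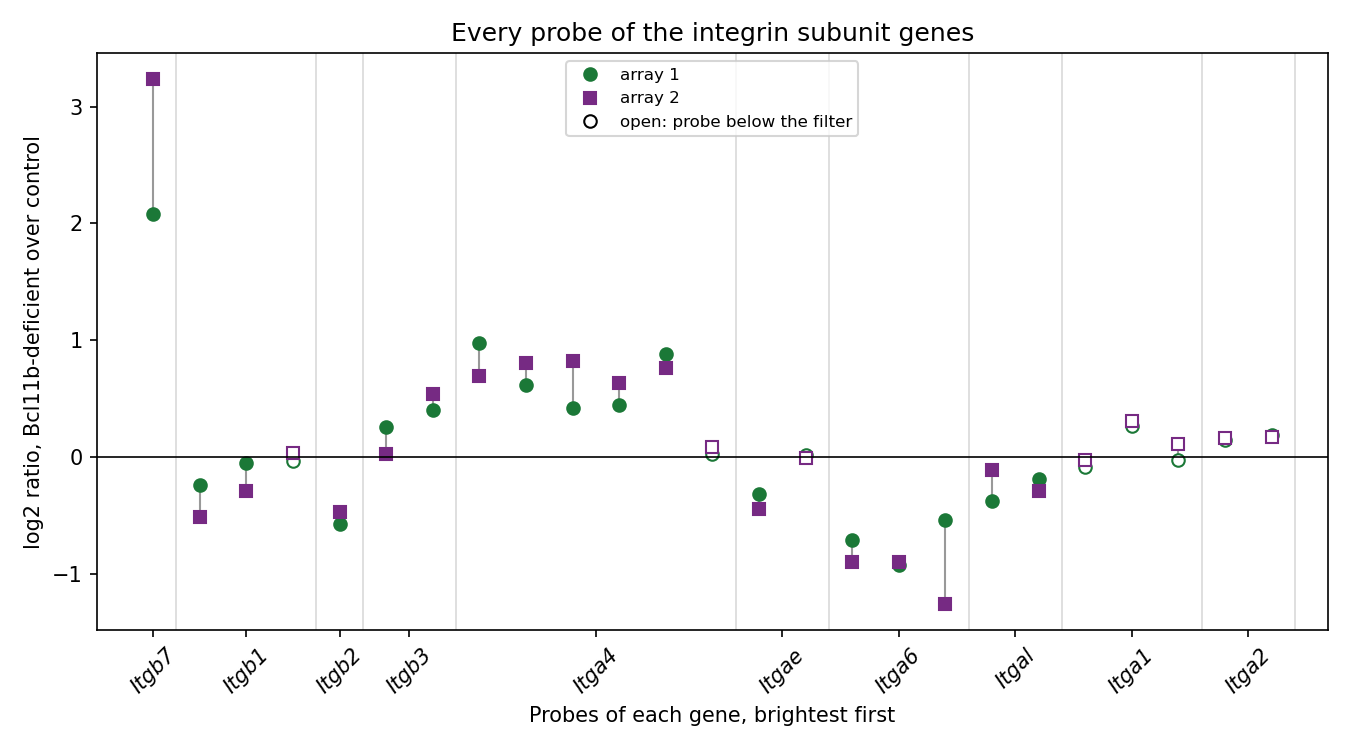
Log2 ratio of Bcl11b-deficient over control for every probe of the 10 genes, brightest first within a gene, with circles for array 1, squares for array 2 and open symbols for probes that did not pass the filter. All 5 filled Itga4 probes lie above 0 and all 3 Itga6 probes below 0 on both arrays, and the arrays are farthest apart for Itgb7. The dimmest filled Itga4 probe passed the filter through the deficient channel alone.

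Since Itgb7 and Itga4 encode partner chains and both had positive ratios, their upstream sequences are shown, 250 bases before the transcript start in RefSeq (GRCm38.p6), 5′ to 3′ on the strand of the gene. Such windows were matched for 5 of the 10 genes. Capitals mark matches on either strand to the RUNX letters TGTGGT, the ETS letters CCGGAA or the GC box GGGCGG, none of which overlap in these windows.
Itgb7 (chr15:102231936-102232185, minus strand): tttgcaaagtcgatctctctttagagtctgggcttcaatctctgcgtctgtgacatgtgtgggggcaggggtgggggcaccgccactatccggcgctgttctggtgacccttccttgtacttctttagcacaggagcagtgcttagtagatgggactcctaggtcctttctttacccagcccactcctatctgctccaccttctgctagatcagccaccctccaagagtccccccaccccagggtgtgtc
Itga4 (chr2:79255176-79255425, plus strand): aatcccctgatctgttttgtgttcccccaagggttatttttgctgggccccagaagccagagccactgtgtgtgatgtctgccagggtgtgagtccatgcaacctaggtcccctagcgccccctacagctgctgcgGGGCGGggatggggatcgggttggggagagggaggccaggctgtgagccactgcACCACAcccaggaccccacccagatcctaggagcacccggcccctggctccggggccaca
The Itga4 window held 1 GC box and 1 RUNX match, and the Itgb7 window held none of the 3 motifs. The RUNX match is printed as ACCACA, since its letters TGTGGT lie on the opposite strand. Of 32851 such windows of all genes, 14% held the RUNX letters, 12% the ETS letters and 32.7% the GC box. These matches describe letters only, and no binding was measured.

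Itgae encodes the alpha E chain, CD103, whose only partner is beta 7. The probe that passed (72961798 to 72963256 on chromosome 11) was dim, at 129 and 84.5 in deficient cells and 203 and 179 in control cells. Both deficient signals lay below both control signals, although the partner gene Itgb7 ran the other way. The log2 ratios were -0.32 and -0.45 (mean -0.38 ± 0.08, limma adjusted p = 0.101), and processed signals gave -0.66 and -1.08 (mean -0.87, limma adjusted p = 0.0743). The second Itgae probe was well above background only in the deficient sample of replicate 1 and read 53.9 and 39.3 in deficient cells and 48.0 and 40.1 in control cells. Of 12 markers of intraepithelial and resident lymphocytes, 8 were measured. Their median log2 ratio was 0.73, or 0.60 with Cd160 at its bound, with 6 above 0 and 2 below 0 on both arrays. Of those above 0, Cd160, Runx3, Xcl1 and Cd244a passed the filter through the deficient channel alone. The filter favours a positive ratio for such genes, so the median and the count are not evidence of a rise in the list. The highest were Runx3 at 1.09 ± 0.15 over a control signal above background on array 1 only, and Cd160 at least 1.33-fold higher. Ccr9, a chemokine receptor gene that DP cells express too, gave -0.74 and -1.99 in the same list, and Cd69, an activation and residency gene, gave -0.34 and -0.92. Gzmb did not pass the filter. The summed signal of the 8 was 27100 and 16797 in deficient cells and 40542 and 47326 in control cells, mostly from Ccr9. Without Ccr9 it was 8002 and 7025 in deficient cells and 4220 and 3938 in control cells, the other direction. Their part in the Itgae signal was not tested.

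Itga6 encodes the alpha 6 chain of laminin receptors. Its brightest probe (71658755 to 71658814 on chromosome 2) had processed signals of 2534 and 2256 in deficient cells and 4194 and 4436 in control cells. Both deficient signals were below both control signals, and the log2 ratios were -0.72 and -0.90 (mean -0.81 ± 0.09, limma adjusted p = 0.0747), or 57.0% of the control level. Only 0.804% of all genes had a lower mean. The other probes gave means of -0.91 and -0.90, and all 3 were below 0 on both arrays. The dimmest of them spread most, at -0.54 and -1.26. Separate-channel limma gave the brightest probe an adjusted p of 0.0214, while with median centring its mean was -0.53 (limma adjusted p = 0.0529), not past the threshold. One more probe on chromosome 2, which the array files describe as integrin alpha 6 but give no gene name, was not counted, and it read 34.9 and 31.1 in deficient cells and 37.0 and 51.5 in control cells, near background.

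Itgal encodes the alpha L chain of LFA-1, the partner of beta 2. Its brighter probe (127125992 to 127126051 on chromosome 7) had processed signals of 11027 and 10620 in deficient cells and 14167 and 11601 in control cells. The deficient signals lay below both control signals, but on replicate 2 only slightly, with ratios of -0.38 and -0.11 (mean -0.24 ± 0.10, limma adjusted p = 0.212). The second probe gave -0.19 and -0.29. The sign of Itgal depended on the scaling: with median centring, which moved the median of all genes to 0.13, its mean was 0.26 (limma adjusted p = 0.281).

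Itga1 and Itga2 encode the alpha chains of collagen receptors, found on resident and NK lymphocytes, and in mice alpha 2 carries the DX5 epitope of NK cells. None of the 3 Itga1 probes or the 2 Itga2 probes was well above background in any sample. Their highest processed signals were 28.0 for Itga1, in control replicate 2, and 24.1 for Itga2, in deficient replicate 1. No ratio is given for them, and a difference in either was not detectable at this signal.

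**Figure D3:**
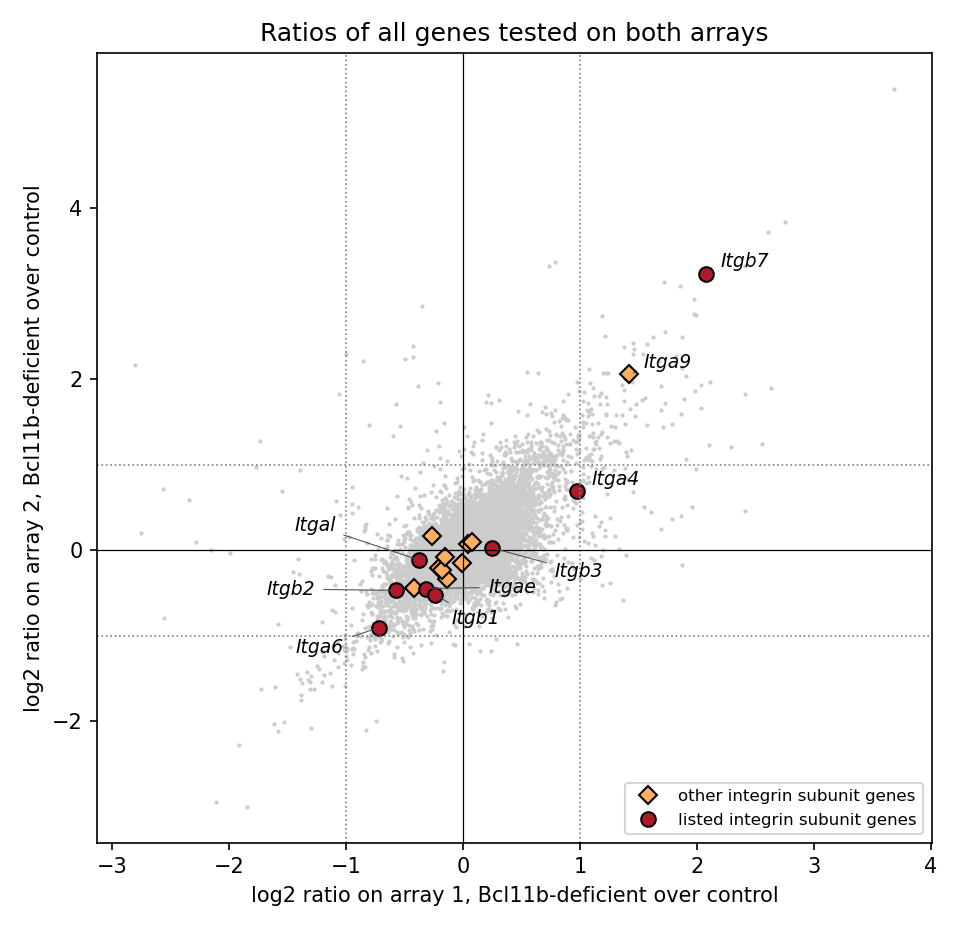
Log2 ratio of Bcl11b-deficient over control on array 1 (horizontal) against array 2 (vertical) for 14920 genes (grey), the 8 measured integrin genes (red circles) and 10 other integrin subunit genes (orange diamonds), with dotted lines at 2-fold. Itgb7 and Itga9 lie beyond 2-fold on both arrays, and the remaining integrin genes lie inside the lines on at least 1 array.

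Set side by side, the chains of beta 7 with alpha E, and of beta 1 with alpha 4, had ratios of opposite sign, and those of the other 3 pairs had the same sign, except that Itgal turned positive with median centring. On arrays 1 and 2 the log2 ratio of Itgb7 exceeded that of Itga4 by 1.11 and 2.54, and that of Itgae by 2.40 and 3.68. The ratio of Itgb1 lay 1.21 below that of Itga4 on each array (differences of -1.21 and -1.21), and 0.48 and 0.39 above that of Itga6. The LFA-1 chains were closest, with Itgb2 minus Itgal at -0.20 and -0.36. These are differences between ratios, and no test of them was made.

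Of 16 other integrin subunit genes, 15 were on the array under a matched name and 10 were measured. In limma's test 0 of these 10 passed, 2 had an unadjusted p under 0.05, and separate-channel limma and median centring each called 1, Itga9. Their median log2 ratio was -0.10, with 3 above 0 and 6 below 0 on both arrays. Itga9 encodes the alpha 9 chain, a partner of beta 1. Its brighter probe (118749345 to 118749404 on chromosome 9) had processed signals of 658 and 1065 in deficient cells and 169 and 158 in control cells. The groups did not overlap, with ratios of 1.42 and 2.06 (mean 1.74 ± 0.18, limma adjusted p = 0.0747). A second Itga9 probe read 326 and 407 in deficient cells and 11.99 and 11.1 in control cells, where it was near background, and was at least 2.62-fold higher. Itgb6 was above background in deficient cells only, at least 1.03-fold higher. The other 8 had means between -0.43 for Itgb4, a laminin receptor chain of epithelium, and 0.06 for Itgb5, a partner of alpha V. Itgav, which can pair with beta 1 and beta 3, gave -0.27 and 0.17, and Itga2b gave -0.20 and -0.21. The myeloid chain gene Itgam gave -0.18 and -0.23 near background and passed the filter through the control channel alone. The dendritic cell chain gene Itgax did not pass it.

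For the pathway lists that follow, the shares over all genes are 29.2% at an unadjusted p under 0.05, 4.75% higher and 3.83% lower by separate-channel limma, and 5.87% higher and 0.704% lower after median centring. Genes that activate integrins from inside the cell, such as talin, kindlin-3 and the Rap1 pathway, had a median log2 ratio of 0.02 over 22 of 27 measured, with 6 above 0 and 9 below 0 on both arrays. Limma called 0 of them, 6 had an unadjusted p under 0.05, separate-channel limma called 3 and median centring 2. The highest were Cyth1, encoding cytohesin-1, which binds the beta 2 tail, at 0.67 and 1.27 (mean 0.97 ± 0.17, limma adjusted p = 0.0916), and Skap2, an adaptor gene, at 0.62 ± 0.09. The lowest were Apbb1ip, encoding the Rap1 effector RIAM, at -0.73 and -0.51 (mean -0.62 ± 0.09, limma adjusted p = 0.0850), and Rassf5, encoding the Rap1 effector RAPL, at -0.39 ± 0.08. Focal adhesion and signalling genes had a median of -0.09 over 24 of 27, with 7 above and 12 below 0 on both arrays. Git1, above 0, passed the filter through the deficient channel alone, and Bcar1 and Parvb, below 0, through the control channel alone. In this list Ptk2b, the Pyk2 kinase gene, gave -0.63 ± 0.09 and Arhgef6, the alpha-PIX gene, -0.61 ± 0.07. Zyx, encoding zyxin, gave 0.32 and 1.21, and the adaptor gene Crkl 0.21 ± 0.07. Limma called 0 of these 24, 8 had an unadjusted p under 0.05, separate-channel limma called 2 and median centring 0.

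Surface proteins that sit beside integrins, mostly tetraspanins, had a median of 0.26 over 14 of 15 measured, with 11 above and 2 below 0 on both arrays. The tetraspanin gene Cd82 read 5038 and 5235 in deficient cells and 1701 and 945 in control cells (ratios 1.47 and 2.35, mean 1.91 ± 0.25, limma adjusted p = 0.0808). Cd9, another tetraspanin gene, read 1771 and 1618 in deficient cells and 608 and 362 in control cells (mean 1.62 ± 0.15, limma adjusted p = 0.0717). Both were at least 2-fold higher on both arrays. Limma called 0 of the 14, 8 had an unadjusted p under 0.05, separate-channel limma called 5 and median centring 3. Integrin ligand genes had a median of -0.04 over 14 of 28, with 6 above and 7 below 0 on both arrays. Of these, Fn1, Col1a1 and Col1a2 passed the filter through the deficient channel alone, and Lama2 through the control channel alone. The filter favours the sign that each of them had. Icam1, an LFA-1 ligand gene, gave 0.50 and 1.25 (mean 0.88 ± 0.21), the collagen gene Col1a1 0.48 and 1.21 with control replicate 2 at background, and the laminin genes Lamc1 and Lamb3 -0.43 ± 0.07 and -0.29 ± 0.07. Limma called 0 of the 14, 8 had an unadjusted p under 0.05, separate-channel limma called 0 and median centring 1. The E-cadherin gene Cdh1 and the laminin gene Lama1 were among the 14 ligand genes that did not pass the filter. The Col1a1 ratio moved with the stromal marker sums given above, of which it is a part.

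**Figure D4:**
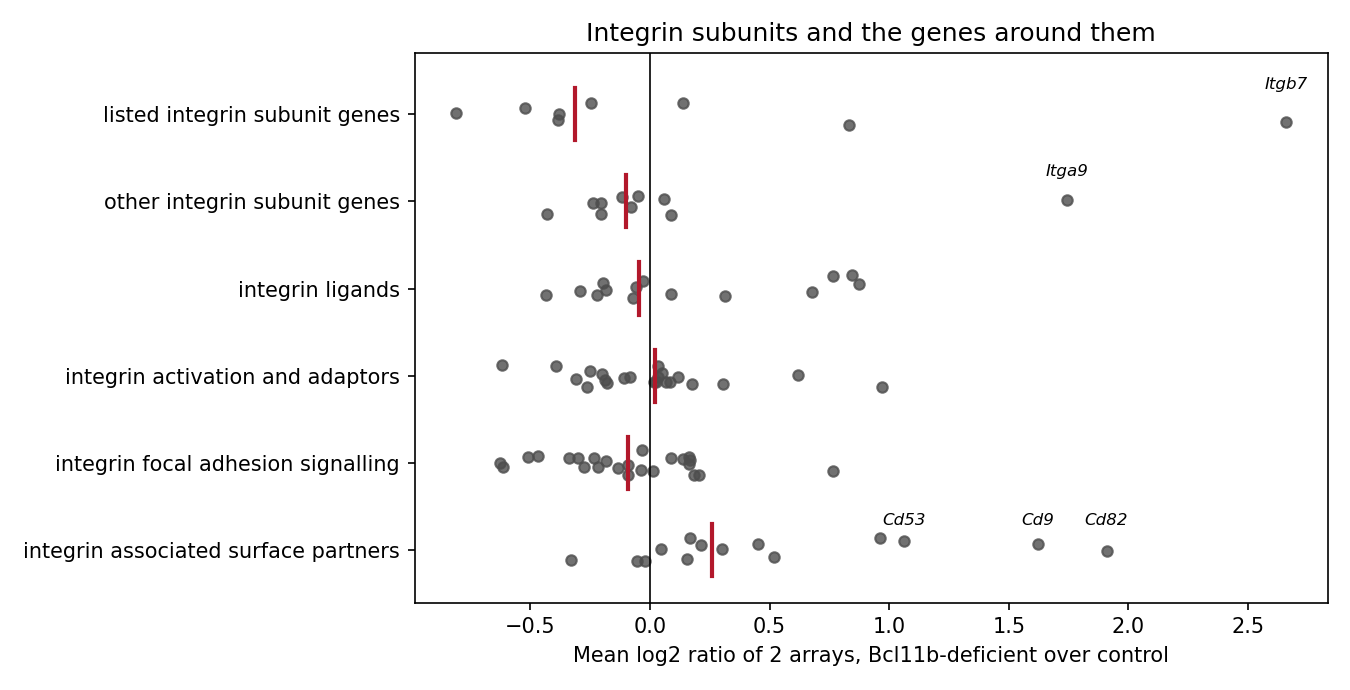
Mean log2 ratio of 2 arrays, Bcl11b-deficient over control, for each measured gene of the integrin subunit lists and the lists of ligands, activators, signalling genes and surface partners, with the median of each list as a red bar. Most points lie within 1 of 0, and Itgb7, Itga9, Cd82 and Cd9 stand farthest to the right.

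**Figure D5:**
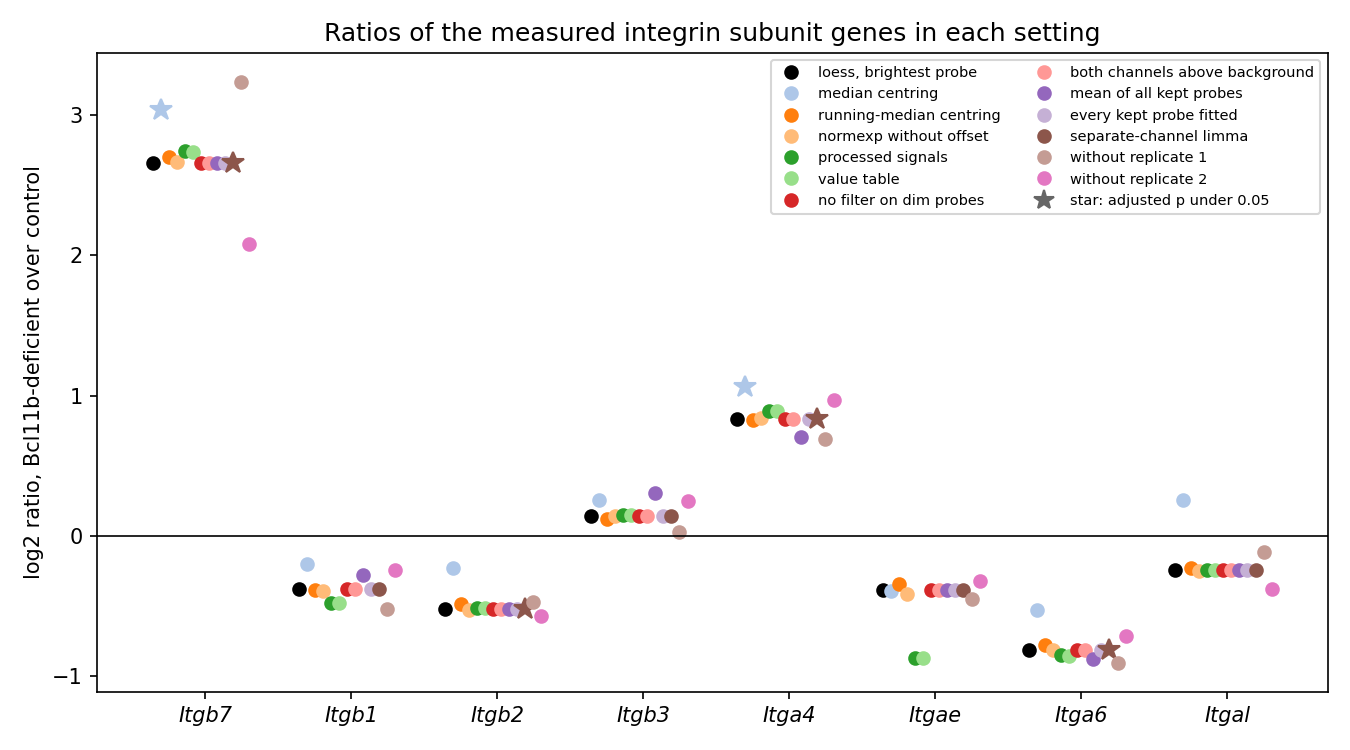
Log2 ratio of the 8 measured integrin genes under the loess setting and each other setting, with stars where limma's adjusted p was under 0.05. Itgb7 ranges from 2.08 to 3.24, and Itgal is the gene whose sign turns, under median centring.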

How the data were processed

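RNA of 2 deficient and 2 control samples was hybridised to 2 two-colour arrays on 1 slide. The deposited mean and background signals are uncorrected scanner intensity values from Agilent Feature Extraction 9.5.3.1, per the submitters' processing notes and the file headers. Processed signals as deposited are intensity values corrected for background, spatial trend and dye, per the file headers. The deposited ratio, and the value table equal to it within rounding, is the log10 of Cy5 over Cy3. Probe positions are mm8, per the file headers.

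In R 4.3.3 with limma 3.58.1, signals were corrected by normexp (offset 50), normalised by loess within arrays with controls at weight 0, and averaged per probe after outlier spots (108 and 116) were left out. Probes well above background in one channel on both arrays were kept (21538 of 41174), and each of 14920 genes was represented by its brightest kept probe. Symbols came from RefSeq by accession for 24496 probes. The mean log2 ratio was tested with limma's moderated test with 1 residual degree of freedom, adjusted over all genes. The fit was also run on simulated ratios with no dye or array effect, and that run is not used as support here. Marker and pathway genes are named where at least 2-fold on both arrays, otherwise as the 2 highest and 2 lowest of a list, except in lists given by their sums alone, and other genes were chosen after their values were seen. Sums without a list's brightest gene and medians at a bound were added after seeing the data. Members and lists were chosen with earlier results of these data known. p values measure only the spread between 2 arrays, which limma moderates by that of all genes. The number of arrays limits the precision. Alternatives are given in the closing section.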

Additional observations from a re-analysis of the deposited data

How the results depend on the processing

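Of 80 values of the 8 measured integrin genes in 10 other settings, 79 kept their direction and 1 turned, Itgal at 0.26 with median centring. Many of these values could not differ. The settings without the filter, with both channels above background, with every kept probe fitted and with separate channels repeated each gene's loess ratio. Processed signals and the value table gave nearly the same ratios as each other, so the count overstates the number of separate checks. Over all genes limma called 0 with loess, 981 with median centring, 131 with processed signals, 28 with the value table and 1281 with separate channels (statmod 1.5.0). Of the 8 genes, median centring called 2 and separate channels 4. Their median of -0.31 was 0.029 with median centring, -0.28 with running-median centring, -0.32 without the offset, -0.36 with processed signals, -0.36 with the value table, -0.26 with the mean of all kept probes and -0.15 without the filter, which adds the dim Itga1 and Itga2. Leaving out either array gave -0.28 and -0.28, with Itgb7 at 3.24 without replicate 1 and 2.08 without replicate 2. Each ratio already pairs the samples of an array, and 1 residual degree of freedom limits every test of the ratios. Separate-channel limma fits the single channels instead, with a correlation of 0.38 within a spot, and still rests on the same 2 arrays.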

Other observations

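The haemoglobin gene Hba-a1 and Alas2 differed between the arrays by more than any of the 8 measured integrin genes, while 2 other erythroid genes did not. Hba-a1 read 23196 and 41234 in deficient cells and 38107 and 9457 in control cells, with ratios of -0.42 and 2.26. Alas2, an enzyme gene of haem synthesis, gave -0.38 and 1.92. Gata1 gave -0.03 and -0.01, and Epor -0.15 and -0.12. Cd163l1, a scavenger receptor gene of gamma delta T cells, read 3819 and 2508 in deficient cells and 1380 and 784 in control cells (mean 1.47 ± 0.09, limma adjusted p = 0.0663).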
